A study of Saccharomyces cerevisiae with 4 samples.

Results

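The genes described here are the 9 genes of budding yeast that encode the cytosolic translation elongation factors, TEF1, TEF2, EFT1, EFT2, EFB1, TEF4, CAM1, YEF3 and HEF3. They were taken by their systematic identifiers from the 6673 genes listed in the data, and all 9 were found. RNA was sequenced from a wild type strain (WT) and from a strain without *PUF3* (*PUF3Δ*), with 2 replicates of each strain. *PUF3* encodes an RNA binding protein that binds mRNAs of mitochondrial proteins and promotes their decay. The labels give the strain of all 4 libraries as BY4742 and the wild type genotype as MATa with *his3Δ1*, *leu2Δ0*, *met15Δ0* and *ura3Δ0*, while the paper's methods name BY4741. Cells of both strains were moved from YPD at an OD of 0.01 into YPEG, where ethanol and glycerol replace glucose and growth needs respiration, and were grown to an OD of 1.0. The authors deposited RPKM, read numbers scaled to the length of the gene and the size of the library, and the question for these genes is how their RPKM differed between the strains.

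The elongation cycle adds one amino acid at a time to the growing protein. eEF1A (TEF1 and TEF2) brings the aminoacyl-tRNA to the ribosome as a complex with GTP, and its exchange factor eEF1B reloads it, with EFB1 as the catalytic alpha subunit and TEF4 or CAM1 as the gamma subunit. eEF2 (EFT1 and EFT2) moves the ribosome along the mRNA by a codon and carries the modified histidine diphthamide. eEF3 (YEF3) is an ATPase characteristic of fungi that acts on the exit site of the ribosome. HEF3 is its paralog, known for little expression in rich glucose medium and listed in the reference under the older name ZRG7. Most of these genes are highly expressed in growing yeast cells, and those for eEF1A and several ribosomal proteins carry upstream sites for the factor Rap1.

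The coding sequences were compared first, because a read can be counted for one gene of a pair only where the pair differs. In the reference R64, the coding sequences of TEF1 and TEF2 (1377 bases each) differ at 2 positions, counted from 1 at the A of the start codon, T762C and T834C, with the base of TEF1 first. Both are last bases of codons and leave the protein the same. The stretch of 113 bases that holds both differences is shown because every read that separates the genes within the coding sequence has to cover one of the capital letters.
TEF1 (chrXVI:701335-701447, plus strand): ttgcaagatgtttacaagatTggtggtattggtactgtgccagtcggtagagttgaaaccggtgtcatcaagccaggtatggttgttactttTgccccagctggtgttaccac
TEF2 (chrII:478412-478524, plus strand): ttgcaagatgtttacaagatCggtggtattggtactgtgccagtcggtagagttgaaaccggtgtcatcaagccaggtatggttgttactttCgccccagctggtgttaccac

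EFT1 and EFT2 (2529 bases each) differ at 4 positions, A447G, C882T, C2145T and C2364T, with the base of EFT1 first, and here too all are last bases of codons that leave the protein the same. The first and the last of them are shown in 41 bases each, with the differing base in capitals.
EFT1 (chrXV:575524-575564, plus strand): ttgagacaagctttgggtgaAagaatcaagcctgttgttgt
EFT2 (chrIV:1243656-1243696, plus strand): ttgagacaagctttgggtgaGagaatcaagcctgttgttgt
EFT1 (chrXV:577441-577481, plus strand): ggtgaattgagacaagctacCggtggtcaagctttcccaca
EFT2 (chrIV:1245573-1245613, plus strand): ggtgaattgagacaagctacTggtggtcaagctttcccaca

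The remaining paralogs are further apart. YEF3 and HEF3 have the same length, 3135 bases, and differ at 798 positions, an identity of 74.5%, with no identical run longer than 41 bases. Their first 60 bases differ at the 17 capital letters.
YEF3 (chrXII:636780-636839, plus strand): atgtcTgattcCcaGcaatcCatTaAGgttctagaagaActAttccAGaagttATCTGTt
HEF3 (chrXIV:606319-606378, plus strand): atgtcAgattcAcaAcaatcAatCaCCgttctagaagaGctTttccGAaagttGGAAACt
TEF4 and CAM1, of 1239 and 1248 coding bases, were 69.1% identical over 1278 aligned columns.

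To see what the paralogy does to the counts, each coding sequence was divided into all overlapping windows of 36 bases, and the windows that occur once in the genome on either strand were counted. The length of the reads is not given in the sources used here, so windows of 50 and 75 bases were tried as well. Of the 36-base windows, 72 of 1342 (5.37%) were unique in TEF1 and in TEF2 alike, and 144 of 2494 (5.77%) in EFT1 and in EFT2. In the other 5 genes, between 94.2% (EFB1) and 100% (CAM1) were unique, and windows across the splice junctions of EFB1 and TEF4 are not in the genome and were not counted as unique. With 75 bases, 147 windows of TEF1 and 300 of EFT1 were unique. Over all matched genes, 97 had no unique 36-base window, and 96 of them had no read in any of the 4 libraries. Their highest mean RPKM was 0.579, against a median of 54.1 over the 5206 genes whose windows were all unique. Reads with several equal hits were therefore hardly counted in these files, and the RPKM of TEF1, TEF2, EFT1 and EFT2 rest on reads across 2 or 4 positions and understate the level of these genes.

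**Figure D1:**
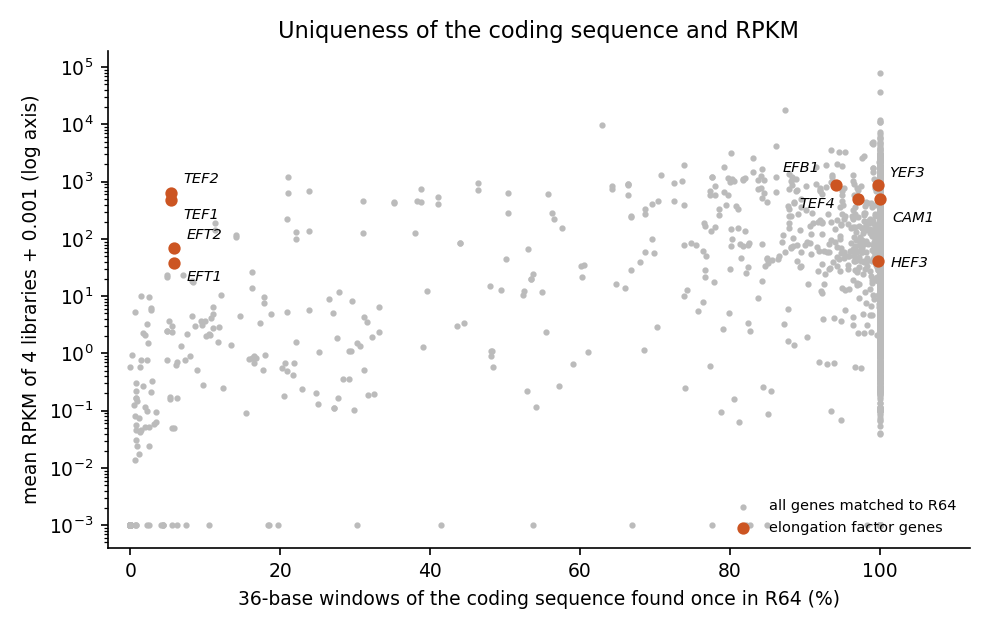
Each grey point is a gene matched to R64, placed by the percentage of its 36-base coding windows found once in the genome (x axis) and its mean RPKM over the 4 libraries plus 0.001 on a log axis (y axis), and the 9 elongation factor genes are in orange. TEF1, TEF2, EFT1 and EFT2 lie between 5.37% and 5.77% on the x axis, while the other 5 genes lie at 94.2% or more.

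The data as a whole set the frame for these values. The libraries held between 6703910 and 8228693 reads on genes, recovered as whole numbers from RPKM and gene length. *PUF3* itself was counted with 569 and 761 reads in the WT libraries, against 2 and 6 in those of *PUF3Δ*. LYS2, which is deleted in BY4742 and not in BY4741, had between 1 and 4 reads in each library. The alpha-cell gene MF(ALPHA)1 had at least 5560 reads where the a-cell gene MFA1 had at most 10. STE3, also of alpha cells, had at least 1095 reads, and STE2, of a cells, had between 40 and 147. MET17 (also MET15) had at least 1120 reads. STE3 and MET17 each overlap another listed gene. Both strains thus had the markers of BY4742 and neither the mating type nor the *met15Δ0* of the labelled genotype. The strains were compared with limma on log2(RPKM + 1) over the 5860 genes whose mean RPKM reached 1, and all 9 genes passed this filter. At a Benjamini-Hochberg adjusted p under 0.05, *PUF3Δ* was higher for 18.9% and lower for 54.2% of all genes. Over all genes the median log2 fold change was -0.39, and it became -0.01 with median-of-ratios scaling, so small changes are given below also relative to the median of all genes. RPKM is a share of the counted mRNA, and less mRNA of a gene per cell cannot be told apart from more mRNA of other genes. The labels do not say whether the replicates came from separate cultures, and the p-values measure the spread between these libraries only.

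Of the 9 elongation factor genes, the 2 genes for eEF3, YEF3 and HEF3, were higher in *PUF3Δ*, EFT1, EFT2 and EFB1 were lower, and TEF1, TEF2, TEF4 and CAM1 did not pass the threshold. The shares called, 2 of 9 higher and 3 of 9 lower, stand beside 18.9% and 54.2% of all genes. After median-of-ratios scaling 6 of the 9 were called higher and 0 lower, beside 33.9% and 33.2% of all genes, and after a loess correction for gene length 6 were higher and 1 lower, beside 30.1% and 34.3%. YEF3 and HEF3 were among the genes called higher in each. The median log2 fold change of the 9 genes was 0.04, which is 0.43 above the median of all genes, and 7 of the 9 lay above that median. The 9 genes took 0.620% and 0.610% of the reads in WT and 0.793% and 0.759% in *PUF3Δ*. Without YEF3 and HEF3 the other 7 genes took 0.421% and 0.407% in WT and 0.412% and 0.391% in *PUF3Δ*, so the strains overlapped for them. YEF3 alone went from 0.197% ± 0.0027 (SD, n = 2) to 0.352% ± 0.0080 (SD, n = 2) of the reads.

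**Figure D2:**
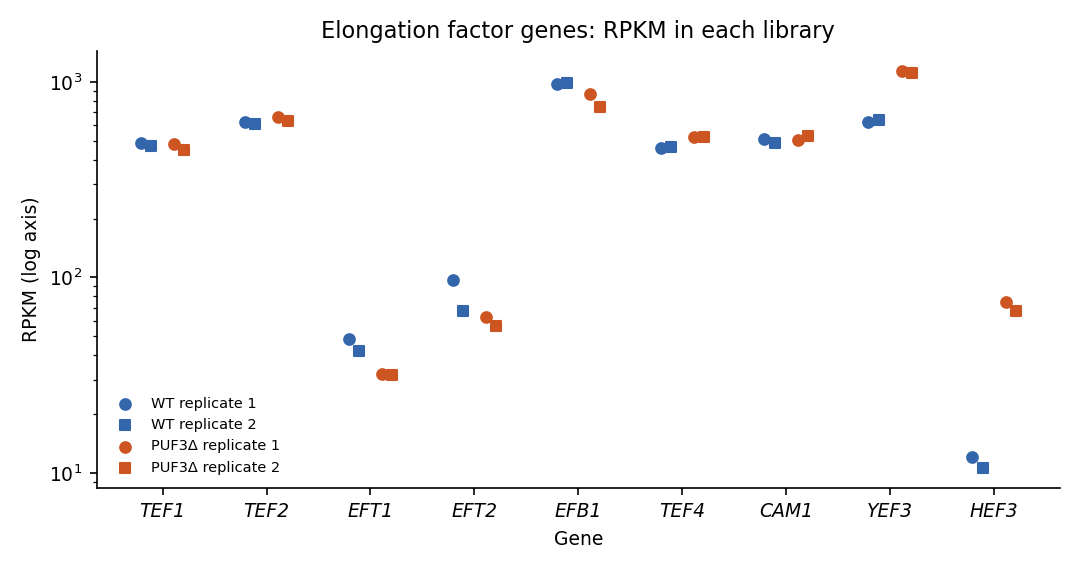
RPKM of the 9 genes in each library on a log axis, with WT in blue, *PUF3Δ* in orange, replicate 1 as circles and replicate 2 as squares. HEF3 runs from 10.6 and 12.03 in WT to 67.6 and 74.96 in *PUF3Δ*, and YEF3 from at most 635.5 to at least 1104, while TEF1 and CAM1 overlap between the strains.

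**Figure D3:**
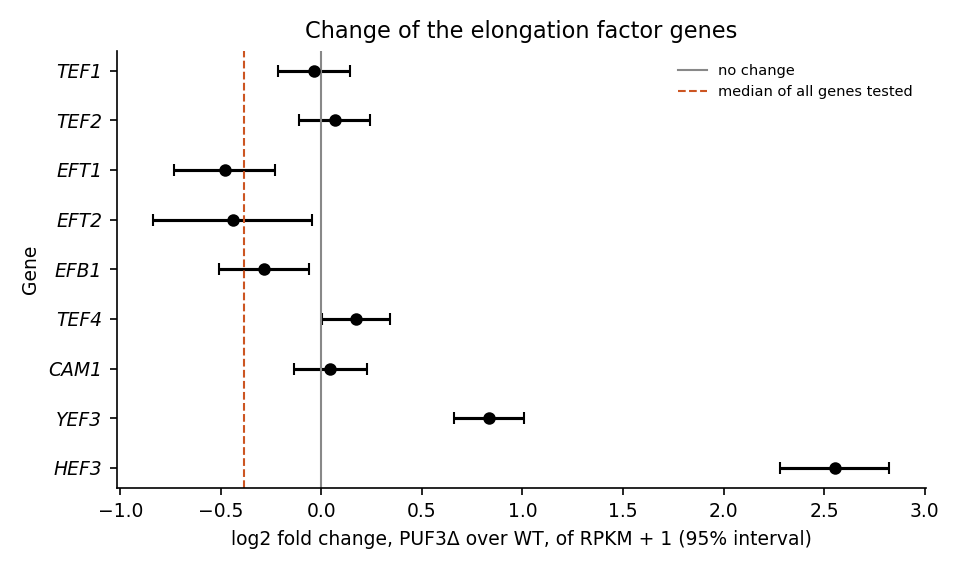
Log2 fold change of RPKM + 1 in *PUF3Δ* over WT for each gene (x axis) with its 95% interval from limma. The solid line is no change and the dashed line is the median of all genes at -0.39. The intervals of YEF3, HEF3 and TEF4 lie wholly to the right of both lines, that of TEF4 only just, from 0.0035.

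YEF3 (YLR249W, R64 chromosome XII from 636780 to 639914, plus strand, a single coding exon) encodes the eEF3 that yeast cells need to grow. Its RPKM was 623.2 and 635.5 in WT and 1140.4 and 1104.3 in *PUF3Δ*, from between 14403 and 28118 reads per library. Each *PUF3Δ* library thus lay above each WT library, and the replicates of a strain lay close together. The mean rose 1.78-fold, with a log2 fold change of 0.83 (SE 0.07, limma adjusted p = 6.3e-05). Among all genes, YEF3 was at ranks 306 and 296 by RPKM in WT and at ranks 141 and 144 in *PUF3Δ*. Its fold change lay at the 93.2th percentile of the genes tested.

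HEF3 (YNL014W, chromosome XIV from 606319 to 609453, plus strand, a single coding exon) had an RPKM of 12.03 and 10.6 in WT, from 278 and 274 reads, and of 74.96 and 67.6 in *PUF3Δ*, from 1576 and 1721 reads. It was low in both WT libraries and several times higher in both *PUF3Δ* libraries. The ratio of the means was 6.29, the log2 fold change was 2.55 (SE 0.12, limma adjusted p = 8.8e-06), which ranked 38 from the top among the 5860 genes tested. HEF3 overlaps another listed gene, YNL013C, which had no read in any library. The share of HEF3 in the reads of the eEF3 pair was 1.89% (95% Clopper-Pearson interval 1.68% to 2.13%) and 1.64% (1.46% to 1.85%) in WT and 6.17% (5.88% to 6.47%) and 5.77% (5.51% to 6.04%) in *PUF3Δ*. These intervals cover counting error only. The share differed between the strains by more than the spread of the replicates, though the exact permutation test over 4 libraries, two-sided, gave p = 0.333, the smallest that 2 against 2 allow. YEF3 remained 15.2 and 16.3 times above HEF3 in *PUF3Δ*. Summed over the pair, the RPKM of the eEF3 genes went from 640.6 ± 7.69 (SD, n = 2) to 1194 ± 30.7 (SD, n = 2), and the log2 fold change was 0.90 (SE 0.07, limma adjusted p = 4.9e-05).

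At 3135 coding bases each, YEF3 and HEF3 are the longest of the 9 genes. After the loess correction of each library for gene length, the log2 fold changes were 0.69 for YEF3 and 2.40 for HEF3, and both stayed past the threshold. Both were also called higher in all 14 alternative settings, between 0.69 and 1.22 for YEF3 and between 1.93 and 2.96 for HEF3.

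The genes for eEF1A did not pass the test. TEF2 (YBR118W, chromosome II from 477671 to 479047, plus strand, 1 exon) had an RPKM of 623.8 and 606.6 in WT and 660.0 and 628.3 in *PUF3Δ*. The *PUF3Δ* libraries lay just above the WT libraries, with a log2 fold change of 0.07 (95% interval -0.11 to 0.24, limma adjusted p = 0.44). TEF1 (YPR080W, chromosome XVI from 700594 to 701970, plus strand, 1 exon) had 485.7 and 470.1 in WT and 481.9 and 450.6 in *PUF3Δ*. The strains overlapped, with a log2 fold change of -0.04 (95% interval -0.22 to 0.14, limma adjusted p = 0.68). Relative to the median of all genes, these changes were 0.45 for TEF2 and 0.35 for TEF1. Under median-of-ratios scaling, TEF1 and TEF2 were called higher, with 0.35 and 0.45.

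The 2 genes for eEF1A kept a near constant proportion. TEF1 had 43.8% (95% Clopper-Pearson interval 42.9% to 44.7%) and 43.7% (42.8% to 44.5%) of the reads of the pair in WT, and 42.2% (41.3% to 43.2%) and 41.8% (40.9% to 42.7%) in *PUF3Δ*. TEF2 was thus the higher gene of the pair in each of the 4 libraries, from the same number of unique windows. The share of TEF1 was lower by 1.74 percentage points in *PUF3Δ*, without overlap between the strains (exact permutation test, two-sided, p = 0.333, the smallest possible).

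EFT1 (YOR133W, chromosome XV from 575098 to 577626, plus strand, 1 exon) and EFT2 (YDR385W, chromosome IV from 1243230 to 1245758, plus strand, 1 exon) encode the same eEF2. EFT1 had an RPKM of 48.2 and 42.0 in WT and of 32.1 and 31.8 in *PUF3Δ*, from between 545 and 899 reads. EFT2 had 97.2 and 67.5 in WT and 62.8 and 56.3 in *PUF3Δ*, from between 1065 and 1813 reads. Both genes were lower in *PUF3Δ* without overlap, but the WT replicates of EFT2 stood far apart. The log2 fold changes were -0.48 for EFT1 (SE 0.11, limma adjusted p = 0.0050) and -0.44 for EFT2 (SE 0.17, limma adjusted p = 0.046). Relative to the median of all genes they were -0.09 and -0.05. Under median-of-ratios scaling neither was called, with -0.10 and -0.06. The call of EFT2 was also lost without WT replicate 1 (-0.18, limma adjusted p = 0.16), without *PUF3Δ* replicate 1 (-0.52, adjusted p = 0.091) and without *PUF3Δ* replicate 2 (-0.36, adjusted p = 0.20). Summed over the pair, the log2 fold change was -0.46 (SE 0.14, limma adjusted p = 0.018). This call was lost without *PUF3Δ* replicate 1 (limma adjusted p = 0.057), without *PUF3Δ* replicate 2 (0.11), with median-of-ratios scaling (0.66) and with quantile normalization (0.39), and without WT replicate 1 the value was -0.26. EFT1 held between 33.1% and 38.3% of the reads of the pair, with the strains overlapping, and EFT2 was the higher gene in each library.

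The subunits of the exchange factor eEF1B did not move as a group. EFB1 (YAL003W, chromosome I from 142174 to 143160, plus strand), the catalytic alpha subunit, had an RPKM of 972.4 and 985.0 in WT and of 870.5 and 740.7 in *PUF3Δ*. It was lower in both *PUF3Δ* libraries, and these differed more from each other than the WT libraries did. The log2 fold change was -0.29 (SE 0.09, limma adjusted p = 0.029), which is 0.10 above the median of all genes. The call depended on the libraries and the scaling, with -0.17 (limma adjusted p = 0.25) without *PUF3Δ* replicate 2, -0.28 (adjusted p = 0.061) without WT replicate 2, and, with median-of-ratios scaling, 0.10 (adjusted p = 0.39). The count of genes called lower fell from 3 to 1 without *PUF3Δ* replicate 2, where EFT1 alone was left.

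The gamma subunits TEF4 and CAM1 did not pass the threshold. TEF4 (YKL081W, chromosome XI from 282891 to 284455, plus strand) had an RPKM of 456.5 and 466.0 in WT and of 520.6 and 519.2 in *PUF3Δ*. The strains did not overlap, with a log2 fold change of 0.17 (95% interval 0.0035 to 0.34, limma adjusted p = 0.062). CAM1 (YPL048W, chromosome XVI from 464401 to 465648, plus strand, 1 exon) had 511.8 and 486.5 in WT and 501.6 and 528.4 in *PUF3Δ*, and the strains overlapped, with 0.04 (95% interval -0.14 to 0.23, limma adjusted p = 0.61). The share of TEF4 in the summed RPKM of the gamma subunits went from 48.0% ± 1.26 (SD, n = 2) to 50.2% ± 0.966 (SD, n = 2) in *PUF3Δ*. This RPKM share divides TEF4 by a span that includes its intron. In reads, the share of TEF4 went from 53.7% ± 1.25 (SD, n = 2) to 55.9% ± 0.953 (SD, n = 2). The sum of the pair had a log2 fold change of 0.11 (95% interval -0.06 to 0.29, limma adjusted p = 0.19). Under median-of-ratios scaling, TEF4 and CAM1 were both called higher, with 0.56 and 0.43.

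**Figure D4:**
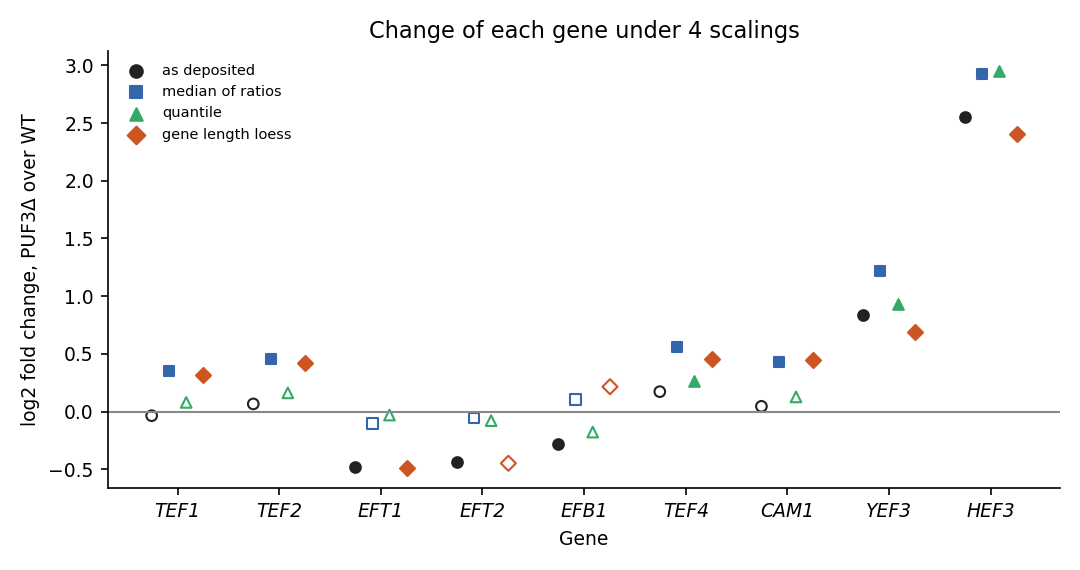
Log2 fold change of each gene in *PUF3Δ* over WT (y axis) as deposited, after median-of-ratios scaling, after quantile normalization and after a loess correction for gene length, with filled symbols for an adjusted p under 0.05. YEF3 and HEF3 are above 0 and filled in every scaling, EFB1 runs from -0.29 to 0.21, and TEF1 from -0.04 to 0.35.

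EFB1 and TEF4 are the only genes of the 9 with an intron, and the deposited RPKM divide by the whole span. The intron of EFB1 has 366 bases (chromosome I from 142254 to 142619), 37.1% of its span, and that of TEF4 has 326 bases (chromosome XI from 283096 to 283421), 20.8% of its span. The ends of the introns are shown as the places where the span and the mRNA part, with the first 6 and the last 3 bases of each intron in capitals.
EFB1, start of the intron (chrI:142244-142273, plus strand): acattgaaggGTATGTtccgatttagttta
EFB1, end of the intron (chrI:142593-142622, plus strand): aatgttttgtttctccttttaaaaTAGtac
TEF4, start of the intron (chrXI:283086-283115, plus strand): caattttattGTATGTtccatattttattt
TEF4, end of the intron (chrXI:283395-283424, plus strand): ataaccatcgagatgatgtatattTAGtgg
Divided by the exon length instead, EFB1 went from 1557 ± 14.1 RPKM (SD, n = 2) in WT to 1282 ± 146 RPKM (SD, n = 2) in *PUF3Δ*, and TEF4 went from 583.0 ± 8.47 RPKM (SD, n = 2) to 657.1 ± 1.25 RPKM (SD, n = 2). These values take all reads as exonic, because reads in the introns cannot be told apart here. The fold changes between the strains are the same under either length.

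The order of the levels was compared per length, on the deposited RPKM. With the whole span as the length, the order in WT was EFB1, YEF3, TEF2, CAM1, TEF1, TEF4, EFT2, EFT1 and HEF3, with means from 978.7 ± 8.88 (SD, n = 2) for EFB1 to 11.3 ± 0.997 (SD, n = 2) for HEF3. YEF3 and TEF2 were neighbours whose libraries overlapped. In *PUF3Δ* YEF3 with 1122 ± 25.5 (SD, n = 2) came before EFB1 with 805.6 ± 91.8 (SD, n = 2) on this length, and HEF3 with 71.3 ± 5.21 (SD, n = 2) stood above EFT2 with 59.6 ± 4.57 (SD, n = 2) and EFT1 with 32.0 ± 0.243 (SD, n = 2). TEF4 and CAM1 overlapped there. With the exon length, and if all reads are taken as exonic, this order changed for the genes with an intron. EFB1 then had 1385 and 1178 RPKM in the *PUF3Δ* libraries, above the 1141 and 1105 of YEF3, and TEF4 stood above CAM1 and TEF1 in WT and above CAM1 in *PUF3Δ* without overlap. The places of TEF1, TEF2, EFT1 and EFT2 in this order follow from the few windows that could be counted. Per unique 36-base window and 10000000 reads on genes, eEF1A (TEF1 and TEF2 summed) had a mean of 209.2 reads in WT, against 22.4 for eEF2, 17.5 for EFB1, 11.3 for TEF4 and CAM1 summed and 6.49 for YEF3 and HEF3 summed. On this scale eEF1A was highest and eEF3 lowest in WT, and with windows of 75 bases the values were 102.5, 10.8, 20.4, 11.9 and 6.56, with eEF2 then below the subunits of eEF1B. In *PUF3Δ* the 36-base values were 212.5, 16.1, 14.4, 12.3 and 12.1. They assume even coverage of a gene and no intron reads for EFB1 and TEF4, and are a description without a test.

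The regions before the genes were searched for known motifs on both strands within 500 bases upstream of the start codon, in 6000 nuclear genes. The core of the Rap1 site, ACCCANNCA, was found in 4 of the 9 genes, TEF1, TEF2, TEF4 and YEF3, against 5.98% of all genes and 39.4% of 137 genes of cytosolic ribosomal proteins. The matches are shown with 6 bases on either side and the motif in capitals, in TEF4 as its reverse complement.
TEF1, 332 bases before the start codon (chrXVI:700256-700276, plus strand): caaaacACCCAAGCAcagcat
TEF2, 435 bases before the start codon (chrII:477230-477250, plus strand): tgttgcACCCACACAtttata
TEF4, 389 bases before the start codon (chrXI:282496-282516, plus strand): atttggTGTCTGGGTgaaact
YEF3, 289 bases before the start codon (chrXII:636485-636505, plus strand): ggccccACCCATGCAtaaccc
On the deposited scale YEF3 was called higher, and TEF1, TEF2 and TEF4 did not pass the test. Under median-of-ratios scaling all 4 were called higher, as were CAM1 and HEF3, which have no match. Whether the site bears on the change was not tested.

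The ribosome biogenesis motif RRPE, AAAAATTTT, was found before 6 of the 9 genes, all but TEF2, CAM1 and HEF3. It was found before 9.47% of all genes and 9.49% of the ribosomal protein genes. The motif PAC, GATGAG, was found before TEF4 and YEF3, against 28.25% and 21.9%. The stress response element AGGGG was found before TEF1, EFT1, YEF3 and HEF3, against 34.1% of all genes. The consensus site of the zinc-responsive factor Zap1, searched by its ZRE sequence on both strands, was found before none of the 9 genes and 0.15% of all genes. The core of the element that Puf3p binds, TGTANATA, was searched on the coding strand within 200 bases after the stop codon, and was found in none of the 9 genes, against 14.1% of 6002 genes. These matches describe letters in a window and are no test of binding.

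The other genes of translation were taken from lists and are described by counts beside the 18.9% higher and 54.2% lower of all genes. The cytosolic ribosomal protein genes were lower in 135 of 137 cases and higher in none, with a median log2 fold change of -1.07, and the largest decrease was that of RPL22B with -3.79 (SE 0.14, limma adjusted p = 7.0e-06). RPL22B went from an RPKM of 468.3 and 350.9 in WT to 26.98 and 29.9 in *PUF3Δ*. The RPKM of YEF3 was 0.551 and 0.591 times the median of the 115 ribosomal protein genes with at least 50% unique windows in WT, and 2.08 and 1.99 times in *PUF3Δ* (exact permutation test not below p = 0.333 with 2 against 2). For CAM1 the same ratio went from 0.452 and 0.452 to 0.916 and 0.954, and for EFB1 from 0.860 and 0.915 to 1.59 and 1.34. This ratio was higher in both *PUF3Δ* libraries than in both WT libraries for EFB1, TEF4, CAM1, YEF3 and HEF3, as it was for 71.1% of the 5860 genes tested. The ratios use the deposited RPKM, without correction for introns or repeated windows of the ribosomal protein genes. Both would lower the RPKM of those genes. Whether YEF3 stood above a typical ribosomal protein gene is therefore not read from these ratios.

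**Figure D5:**
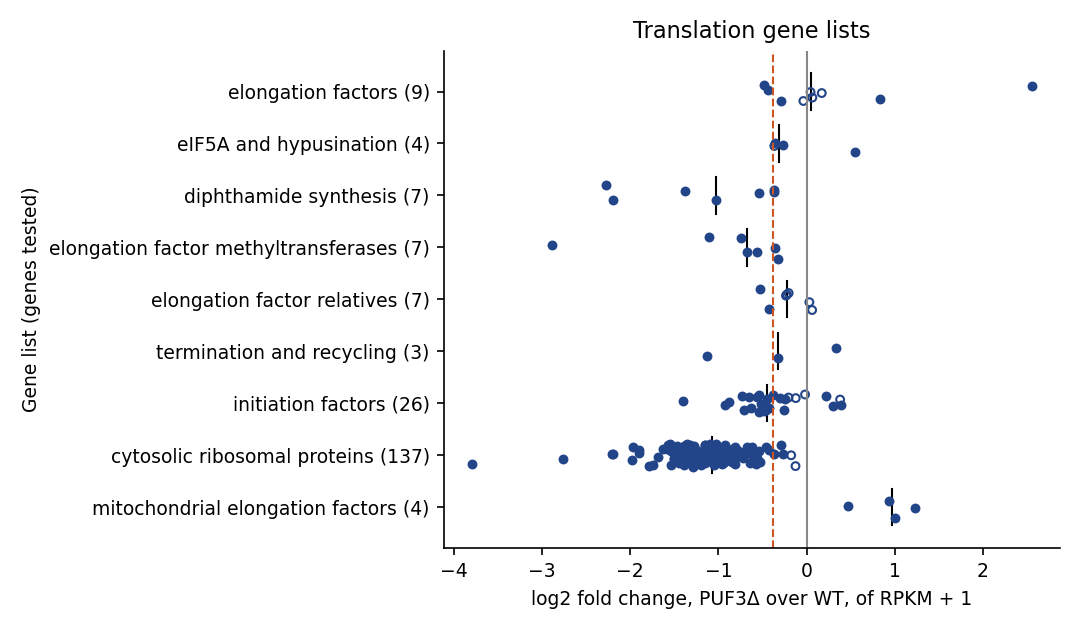
Log2 fold change of RPKM + 1 in *PUF3Δ* over WT (x axis) for the genes of 9 lists (y axis, with the number tested), where filled points passed an adjusted p of 0.05, the short bars are medians, the solid line is no change and the dashed line is the median of all genes at -0.39. The elongation factors have a median of 0.04, the ribosomal protein genes of -1.07 and the mitochondrial elongation factors of 0.97.

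Enzymes that modify eEF2 and eEF1A were lower on the deposited scale. All 7 genes of diphthamide synthesis, which modify eEF2, were called lower, with a median log2 fold change of -1.02. The largest decrease was that of KTI11, a small protein that carries electrons in the first step, from an RPKM of 1589 and 1248 in WT to 310.3 and 271.9 in *PUF3Δ* (log2 fold change -2.27, SE 0.13, limma adjusted p = 1.6e-05). KTI11 overlaps another listed gene. Also all 7 genes of methyltransferases that act on elongation factors were called lower, with a median of -0.67, and EFM6, which methylates eEF1A, fell most, from 14.8 and 10.3 to 0.40 and 1.33 (log2 fold change -2.89, SE 0.32, limma adjusted p = 1.6e-04). Relative to the median of all genes, the medians of the 2 lists were -0.64 and -0.29, and 2 of the 7 genes in each lay above it. With median-of-ratios scaling 4 of the 7 were called lower in each list, against 33.2% of all genes.

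eIF5A promotes the formation of difficult peptide bonds and carries hypusine. HYP2, its gene for aerobic growth, had an RPKM of 1091 and 1041 in WT and of 1638 and 1476 in *PUF3Δ* (log2 fold change 0.54, SE 0.08, limma adjusted p = 9.4e-04), and it overlaps another listed gene. ANB1, the hypoxic gene, had 2.29 and 5.37 in WT and 2.51 and 2.59 in *PUF3Δ*, without a call (adjusted p = 0.37). DYS1 and LIA1, the enzymes of hypusine formation, were lower, with -0.35 (limma adjusted p = 0.0082) and -0.27 (limma adjusted p = 0.017). LIA1 also overlaps another listed gene. Neither enzyme was called lower with median-of-ratios scaling or without *PUF3Δ* replicate 1 or *PUF3Δ* replicate 2, where 0 genes of this list were lower.

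Of 3 genes of termination and recycling, SUP35, which encodes the GTPase eRF3, was higher with 0.33 (SE 0.09, limma adjusted p = 0.011), and RLI1, the ribosome recycling ATPase, was lower with -1.13 (SE 0.10, limma adjusted p = 5.6e-05). SUP45, the gene of eRF1, was also lower, with -0.33, which is 0.06 above the median of all genes. Of 7 genes related to the elongation factors in sequence or function, none was called higher and 2 lower, with the largest decrease in ZPR1, which binds eEF1A during its folding (-0.53, SE 0.09, limma adjusted p = 0.0012). Without *PUF3Δ* replicate 1 or replicate 2, SUP35 was no longer called, and 1 gene of the related list was. Of 26 initiation factor genes, 3 were higher and 19 lower, with a median of -0.45, from GCN3, a subunit of eIF2B, with -1.40 (SE 0.08, limma adjusted p = 1.5e-05) to PAB1, the poly(A)-binding protein, with 0.39 (SE 0.07, limma adjusted p = 0.0021). Relative to the median of all genes, the median of this list was only -0.07, and 11 of the 26 genes lay above it. Without either *PUF3Δ* library, 1 initiation factor gene was called higher.

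The elongation factors of mitochondria moved the other way from the ribosomal protein genes. All 4 genes were called higher, with a median of 0.97, and 3 of 4 were without WT replicate 1, *PUF3Δ* replicate 1 or *PUF3Δ* replicate 2. TUF1, the mitochondrial counterpart of eEF1A, had an RPKM of 484.0 and 441.2 in WT and of 871.6 and 902.9 in *PUF3Δ*. MEF1, which acts in mitochondrial translocation, had 30.0 and 32.8 in WT and 73.8 and 75.7 in *PUF3Δ*, and MEF2, which acts in ribosome recycling, had 38.0 and 41.9 and 77.0 and 84.5. Their log2 fold changes were 1.23 and 1.00. GUF1 was lowest of the 4, with 8.05 and 10.7 in WT and 12.4 and 14.04 in *PUF3Δ* (log2 fold change 0.47, SE 0.17, limma adjusted p = 0.045).

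The genes most like the sum of the 9 elongation factor genes were sought by the Euclidean distance of their log2(RPKM + 1) in the 4 libraries, each centred on its own mean, among 1812 other genes whose mean RPKM reached 100. The 5 nearest were ATP16, RME1, WTM1, CLN3 and ILV5, at distances from 0.030 to 0.047. ATP16, the nearest, had an RPKM of 943.6 and 932.8 in WT and of 1060 and 1036 in *PUF3Δ*. With 4 libraries of 2 strains, the distance describes a small rise in *PUF3Δ* of similar size and nothing more.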

How the data were processed

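The data are RNA-seq libraries of poly(A) RNA, 2 of WT and 2 of *PUF3Δ*. The authors mapped the reads by SOAP2 with at most 2 mismatches and deposited RPKM, 1 value per gene and library. Not given in the sources used here are the version of SOAP2, read length, how multiply mapping reads were handled, and whether counting used strand. The submitters' processing notes name the build R64, and sequences and positions come from the RefSeq copy of R64, to which 5984 of 6673 identifiers matched. Reads were recovered as RPKM times span times library total, and 100% of the values were whole within 0.05 reads or the rounding of RPKM. Depth was 6703910 to 8228693 reads.

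The test between strains was limma 3.58.1 (R 4.3.3), with a trended eBayes prior and no replicate block, on log2(RPKM + 1) of genes whose mean RPKM reached 1. The pseudocount understates the change of low genes. The labels do not say that equal replicate numbers share a culture. Limma was also run on simulated reads with few genes changed, up or down at equal odds. Most genes were called in the data, so that run does not bear on calls that depend on the scaling. The 9 genes, the lists and the tests were chosen with earlier results of these data known, and the zinc genes, with those named among them, after values were seen. Ribosomal protein genes were taken by symbol, and RPP1, a subunit of RNase P that shares the prefix, was taken out afterwards. Named besides the 9 genes were all genes of eIF5A with hypusination and of mitochondrial elongation, in the other translation factor lists the largest increase and decrease past the threshold (also SUP45), strain markers, and the 5 genes of most similar profile. Alternatives were the pseudocount, filters, scaling, a length correction, a replicate block, limma voom on recovered reads, and leaving out each library. Python 3.11.15 with scipy 1.17.1 and Biopython 1.88 was used for the other steps.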

Additional observations from a re-analysis of the deposited data

How the results depend on the processing

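Under median-of-ratios scaling 6 of the 9 genes were called higher and 0 lower (2 and 3 as deposited), and the median log2 fold change of the 9 genes was 0.43, with TEF1+TEF2 at 0.41, EFT1+EFT2 at -0.074 (no longer called), TEF4+CAM1 at 0.50, TEF1 at 0.35 and EFB1 at 0.10. Under quantile normalization 0 genes were called lower, the median was 0.13, EFT1+EFT2 had -0.16 (not called) and TEF4+CAM1 0.20 (called). With the loess correction for gene length, 6 genes were called higher and 1 lower, with a median of 0.42, TEF1+TEF2 at 0.38, TEF4+CAM1 at 0.46, TEF1 at 0.32 and EFB1 at 0.21, and with the replicate block added these values held, with 6 higher and 2 lower. The replicate block alone left 2 genes higher and 3 lower. The deviations of libraries with the same number had a correlation of -0.014, which shows no large shared shift. With 2 replicates of each strain, it cannot tell whether equal numbers share a culture or day. Leaving out each library in turn gave 2 genes higher and between 1 (without *PUF3Δ* replicate 2) and 2 lower, a median from 0.0085 to 0.081, and EFT1+EFT2 from -0.66 to -0.26, with the adjusted p from limma between 6.6e-04 and 0.11. With 1 library left in an arm, that library is assumed to vary like the other strain's. Pseudocounts of 0.1 and 10, no filter, a filter at an RPKM of 10 and limma voom left the calls of YEF3 and HEF3 in place. The cause of these dependences was not tested. Few unique windows limit TEF1, TEF2, EFT1 and EFT2.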

Other observations

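HEF3 is listed in the reference also as ZRG7, a name for zinc-regulated genes, so 10 genes known in yeast as targets of the zinc-responsive factor Zap1 or as zinc transporters were looked up after its value was seen. Of these, 1 was higher and 6 were lower in *PUF3Δ* (10 tested), shares close to the 18.9% and 54.2% of all genes, so nothing particular to these genes is read from them. VEL1 had the lowest log2 fold change of the 10, -2.64 (limma adjusted p = 5.3e-04), with an RPKM of 7.63 and 8.01 in WT and of 0 and 0.990 in *PUF3Δ*. ZRT1, the high-affinity zinc importer, had an RPKM of 34.4 and 28.1 in WT and of 10.5 and 10.2 in *PUF3Δ* (log2 fold change -1.496, limma adjusted p = 7.7e-05). ZRT2, the low-affinity importer, fell from 196.2 and 174.7 to 47.6 and 45.6 (log2 fold change -1.97, limma adjusted p = 1.0e-05). ZAP1 itself had 30.3 and 25.004 in WT and 29.2 and 29.1 in *PUF3Δ*, without a call (adjusted p = 0.57). FET4, a low-affinity transporter of iron and zinc, was the gene that was higher, with 13.6 and 13.8 in WT and 29.9 and 35.5 in *PUF3Δ* (log2 fold change 1.19, limma adjusted p = 1.4e-04). Of the remaining genes, ADH4, ZPS1 and ZRC1 were called lower, with log2 fold changes of -1.11, -0.51 and -0.25. ZRT3 and IZH1 were not called, with 0.08 and 0.26.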
